A study of Mus musculus with 7 samples.

Results

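The IGHV14 family comprises 4 immunoglobulin heavy chain V genes of the mouse, IGHV14-1, IGHV14-2, IGHV14-3 and IGHV14-4. A cell was counted as a member when its barcode held exactly 1 productive heavy chain and the first V call of that chain, without its allele, was a family gene. These were 879 of 17381 such cells in 6 B cell receptor libraries, with 132 cells of IGHV14-1, 285 of IGHV14-2, 235 of IGHV14-3 and 227 of IGHV14-4. All 879 V calls named 1 gene and its allele 01, and the separate 10x V call named the same gene in all 879.

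The libraries came from lymph nodes of female mice aged 10 to 11 months, either transgenic 5xFAD mice, a model of Alzheimer's disease amyloid deposition, or wild-type (WT) mice. Deep cervical (dCLN), superficial cervical (sCLN) and inguinal (iLN) nodes were each sampled in both genotypes, giving the groups 5xFAD dCLN, WT dCLN, 5xFAD sCLN, WT sCLN, 5xFAD iLN and WT iLN with 1 library each, and a seventh library mixed all nodes and both genotypes. The cervical nodes drain the head and neck, and the inguinal nodes drain the lower trunk and hind limbs. The 5xFAD transgenes are driven by a neuronal promoter, so the B cells themselves are not their target. Cells were hashed and pooled before loading, and how many animals each library holds is not given in the sources used here. Every p-value below therefore rests on libraries, which may share animals, and none measures the spread between animals. With 1 library per node and genotype, the fits of cell counts take the nodes as repeats of the genotype comparison. Their p-values do not measure the spread between repeat libraries of a group.

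The 6 libraries held between 2107 and 3904 cells with 1 heavy chain and between 99906 and 312484 immunoglobulin UMIs (unique molecular identifiers, counts of captured RNA molecules). Median heavy chain UMIs per cell lay between 9 and 13. Pairs of libraries shared 4 to 35 barcodes, and 0 of these had the same heavy chain junction in both libraries. The tables held 0 T cell receptor contigs and only productive chains. In the WT dCLN library, more cells had the same heavy and light chain junctions as another cell (8.54% of family cells and 6.95% of other cells were such repeats) than in the other 5 libraries (1.06% to 3.61% of family cells and 2.66% to 5.07% of other cells), so the clone shares these repeats move most are given with and without them.

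Each B cell assembles its heavy chain from 1 V, 1 D and 1 J segment, and the V segment encodes the first complementarity-determining regions (CDR1 and CDR2), while the joint of V, D and J encodes CDR3, the most variable part of the antigen site. V genes are grouped into families by sequence likeness. A naive follicular B cell carries IgM and IgD, made by alternative splicing of 1 transcript. After stimulation a B cell can switch to IgG, IgA or IgE, and can acquire point mutations in its V segment.

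The 4 germline V segments are printed because every count below rests on telling them apart. Each runs over 294 bases, as the deposited germline alignments give it, and equals the end of the GENCODE M21 transcript of that gene. The genes lie on the minus strand of chromosome 12 (GRCm38), within 245 kb in which 9 other IGHV genes and 6 IGHV pseudogenes are also annotated. The V exons are chr12:113931953-113932257 for IGHV14-1, chr12:113994469-113994773 for IGHV14-2, chr12:114059845-114060149 for IGHV14-3 and chr12:114176438-114176742 for IGHV14-4. Capitals mark the 21 positions at which at least 1 member differs from another.
IGHV14-1: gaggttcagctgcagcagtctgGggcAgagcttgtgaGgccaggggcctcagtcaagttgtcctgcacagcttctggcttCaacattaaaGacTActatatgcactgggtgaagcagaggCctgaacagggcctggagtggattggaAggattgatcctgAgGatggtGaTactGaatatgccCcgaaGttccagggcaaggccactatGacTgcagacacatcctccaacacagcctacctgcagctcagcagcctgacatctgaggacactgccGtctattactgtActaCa
IGHV14-2: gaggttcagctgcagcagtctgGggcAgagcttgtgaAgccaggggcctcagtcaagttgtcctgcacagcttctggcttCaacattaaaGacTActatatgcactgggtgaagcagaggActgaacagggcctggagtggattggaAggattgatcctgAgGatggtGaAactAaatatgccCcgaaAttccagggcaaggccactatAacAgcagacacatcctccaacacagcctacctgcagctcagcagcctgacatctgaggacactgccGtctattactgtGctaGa
IGHV14-3: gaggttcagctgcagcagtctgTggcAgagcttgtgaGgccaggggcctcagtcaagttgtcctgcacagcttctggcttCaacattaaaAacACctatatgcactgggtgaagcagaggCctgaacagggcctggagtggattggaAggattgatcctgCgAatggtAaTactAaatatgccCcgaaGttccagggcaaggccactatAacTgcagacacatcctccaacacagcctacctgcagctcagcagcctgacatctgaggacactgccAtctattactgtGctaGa
IGHV14-4: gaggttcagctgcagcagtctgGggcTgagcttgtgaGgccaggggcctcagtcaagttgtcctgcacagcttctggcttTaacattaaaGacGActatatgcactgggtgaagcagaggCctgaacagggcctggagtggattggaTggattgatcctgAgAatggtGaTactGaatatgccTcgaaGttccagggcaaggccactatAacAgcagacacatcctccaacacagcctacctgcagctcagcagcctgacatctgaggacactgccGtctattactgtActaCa

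Identity between members ran from 94.9% (IGHV14-3 and IGHV14-4, 15 differing bases) to 97.3% (IGHV14-1 and IGHV14-4, 8 differing bases). Of the 21 variable positions, 4 lay in CDR1, 4 in CDR2 and 2 in the last bases of the segment, which enter CDR3. At that end the members fall into pairs. IGHV14-1 and IGHV14-4 end in tgtactaca, and IGHV14-2 and IGHV14-3 end in tgtgctaga. The complete end was kept in the junction of 61.1% of IGHV14-2 cells and 46.8% of IGHV14-3 cells, and in 39.4% of IGHV14-1 and 39.2% of IGHV14-4 cells. These shares count cells of all 6 libraries together.

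The family made up about 1 in 20 B cells in every library. It averaged 5.12% ± 0.40 of cells (SD over 6 libraries) and ranked 6th of 15 families. IGHV8, just above it at 5.29%, exceeded it in 4 of 6 libraries, and IGHV3, just below it at 4.37%, was exceeded by it in 5 of 6. Among single genes IGHV14-2 ranked 23rd (mean 1.69% of cells), IGHV14-3 30th (1.35%), IGHV14-4 33rd (1.31%) and IGHV14-1 46th (0.768%), and none differed from its neighbours in that order by more than the spread over libraries.

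Whether 5xFAD and WT mice use the family to a different extent was asked node by node. In dCLNs the family held 4.82% of cells in 5xFAD and 4.86% in WT, in sCLNs 5.77% in 5xFAD and 4.83% in WT, and in iLNs 5.46% in 5xFAD and 5.00% in WT. The differences, 5xFAD minus WT, were -0.05 percentage points in dCLNs (95% interval -1.06 to 0.959), 0.947 in sCLNs (-0.243 to 2.18) and 0.458 in iLNs (-0.905 to 1.83), so 0 lay inside each interval. With barcodes of several heavy chains included, the sCLN difference was 1.21 points (0.0663 to 2.40), an interval above 0. In a fit of cell counts per family with node as a term (edgeR's quasi-likelihood test), the family's log2 fold change was 0.12 ± 0.12 (SE, adjusted p = 0.841), and 0 of 13 families passed an adjusted p of 0.05. The same fit had 1 family at an unadjusted p under 0.05, and DESeq2 had 0 at either level. Intervals throughout cover counting error only.

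The members differed in direction. IGHV14-3 was more frequent in 5xFAD than in WT in all 3 nodes, and IGHV14-4 was less frequent in all 3. With barcodes of several heavy chains included, IGHV14-4 was higher in 5xFAD sCLNs (1.65%) than in WT sCLNs (1.49%).

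IGHV14-3 made up 1.66% of cells in 5xFAD dCLNs (65 cells, exact 95% Clopper-Pearson interval 1.29% to 2.12%) and 0.889% in WT dCLNs (30 cells, 0.601% to 1.27%). It made up 1.91% in 5xFAD sCLNs and 1.28% in WT sCLNs, and 1.28% in 5xFAD iLNs and 1.09% in WT iLNs. The intervals of both genotypes were apart in dCLNs and overlapped in the other nodes. They also overlapped in dCLNs in 5 of 8 alternatives, namely with 3 or more UMIs, a light chain required, repeats counted once in all libraries or in WT dCLN only, and each clone counted once. Among the alternatives that kept them apart, the 10x V call gave the same family cells and could not change them. Leaving out ambiguous V calls removed 0 family cells. Overlap of separate intervals is not a test of the difference, which was 0.776 points in dCLNs (95% interval 0.242 to 1.31). Its lower limit was smallest, at 0.154, with WT dCLN repeats counted once. These limits cover counting error only, with 1 library per genotype. IGHV14-3 was the only gene with intervals apart in dCLNs (1.49% of 67 genes), and 1.64% of 61 genes had them in sCLNs and 0 of 57 in iLNs. Shares were higher in 5xFAD in all 3 nodes for 13.1% of 61 genes. Over all nodes IGHV14-3 rose in 5xFAD by 0.62 ± 0.18 on the log2 scale (SE, edgeR's quasi-likelihood test, adjusted p = 0.0403). It was 1 of 4 members called, against a background of 2.60% of 77 genes called, and the other called gene was IGHV1-34, which is outside the family. Over 13 alternatives its log2 fold change lay between 0.45 and 0.74 and its adjusted p between 0.0417 and 0.990, and the call was lost in 11 of them. The alternatives that ended it include DESeq2, a minimum of 3 heavy chain UMIs, each clone counted once and each node left out in turn.

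IGHV14-4 made up 1.05% of cells in 5xFAD dCLNs and 1.39% in WT dCLNs, 1.36% in 5xFAD sCLNs and 1.51% in WT sCLNs, and 0.997% in 5xFAD iLNs and 1.55% in WT iLNs. Its log2 fold change was -0.37 ± 0.18 (SE, edgeR's quasi-likelihood test, adjusted p = 0.537), and lower shares in all 3 nodes were seen for 11.5% of 61 genes. IGHV14-1 (log2 fold change 0.00 ± 0.27) and IGHV14-2 (0.14 ± 0.16) had opposite signs in different nodes, with adjusted p = 0.987 for both by edgeR. IGHV14-2 made up 1.36% in 5xFAD dCLNs and 1.84% in WT dCLNs, but 1.95% in 5xFAD sCLNs and 1.28% in WT sCLNs. The median log2 fold change of the 4 members was 0.07, against 0.00 over all 77 genes.

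**Figure D1:**
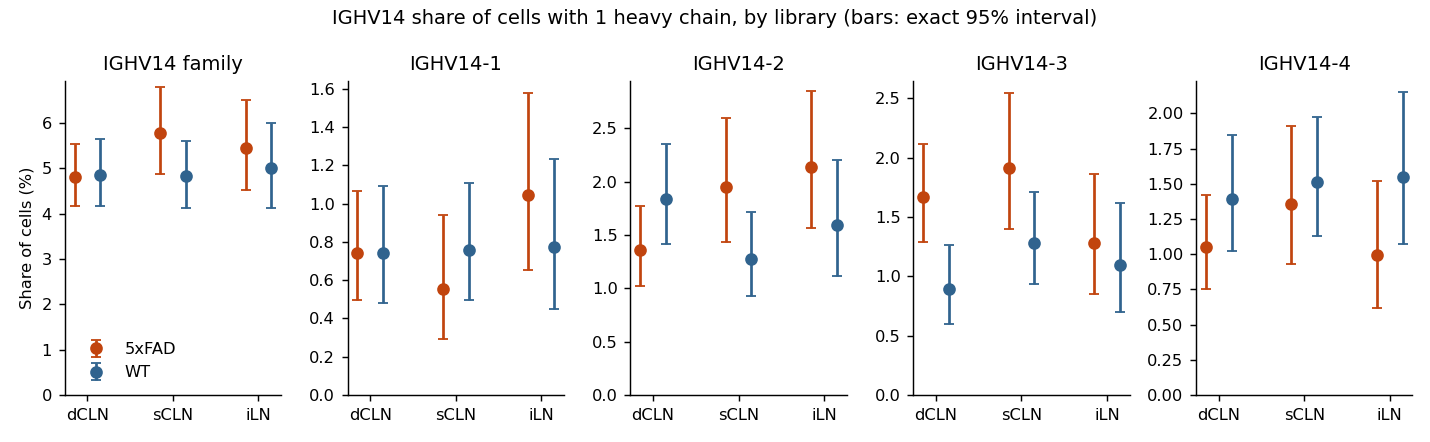
Share of cells (%, y axis from 0) that used the IGHV14 family or each member in the 3 nodes (x axis), 5xFAD in orange and WT in blue, 1 library per point with its exact 95% interval. IGHV14-3 lies higher in 5xFAD at all 3 nodes, with intervals apart in dCLNs (1.66% in 5xFAD and 0.889% in WT) that overlap in 5 of 8 alternative settings, and IGHV14-4 lies lower in 5xFAD at all 3 nodes with overlapping intervals.

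Node of origin was compared in the same fits. Cervical against inguinal nodes gave the family a log2 fold change of -0.05 ± 0.13 (SE, edgeR adjusted p = 0.897), and deep against superficial cervical nodes gave -0.12 ± 0.14 (edgeR adjusted p = 0.556). The 4 members ranged from -0.36 (IGHV14-1) to 0.27 (IGHV14-3) for cervical against inguinal nodes and from -0.32 (IGHV14-3) to 0.14 (IGHV14-1) for deep against superficial nodes. For both comparisons 0 of 77 genes passed by edgeR or DESeq2. At an unadjusted p under 0.05 edgeR had 1 gene for cervical against inguinal and 2 genes for deep against superficial, and DESeq2 had 0 for each.

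Family cells yielded fewer heavy chain molecules than other B cells, while their light chain molecules were about as many. The median was 8 heavy chain UMIs in family cells and 13 in other cells of the 5xFAD dCLN library, 6 and 9 in WT dCLN, 7 and 12 in 5xFAD sCLN, 8 and 11 in WT sCLN, 7 and 12 in 5xFAD iLN, and 7 and 12 in WT iLN. Family cells were lower in 6 of 6 libraries, with a mean difference of -4.33 ± 1.03 UMIs (SD). An exact two-sided sign-flip test over the 6 libraries gave p = 0.03125, the smallest it can give, and 0.0781 after Benjamini-Hochberg adjustment over 15 measures. Of the 15 measures 0 passed an adjusted p of 0.05.

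Median light chain UMIs averaged 28.2 in family cells and 28.7 in other cells. All 4 members had lower heavy chain medians than other cells in 6 of 6 libraries, with means of 7.42 for IGHV14-1, 6.83 for IGHV14-2, 6.58 for IGHV14-3 and 7.67 for IGHV14-4. A lower median in all 6 libraries was seen for 23.0% of 61 genes. Among 13 families only IGHV15, with 40 cells, had a lower mean of medians (6.67). Among IgM cells alone the averages were 9 UMIs in family cells and 13 in other cells, again lower in 6 of 6 libraries, as for 24.6% of 61 genes. The mixed library, which entered none of these values, had a median of 6 heavy chain UMIs in 137 family cells and 9 in 2351 other cells.

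IgD was called more often in family cells. Of unswitched cells (IgM or IgD), 30.4% of family cells and 21.1% of other cells carried an IgD call as the mean over libraries, higher in 6 of 6 libraries (exact sign-flip p = 0.03125, adjusted p = 0.0781). IGHV14-3 and IGHV14-4 were each higher in all 6, as 8.20% of 61 genes were. The heavy chain UMI count moved with this call. IgD was called in 69.7% of family cells and 58.5% of other cells with 1 to 2 heavy chain UMIs, in 21.2% of family cells and 27.6% of other cells with 6 to 10, and in 6.53% of family cells and 11.5% of other cells with 11 to 20. When other cells were weighted to the family's UMI bins, the family's IgD share was lower than theirs in 5 of 6 libraries, by 1.99 points on average (exact sign-flip p = 0.125).

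**Figure D2:**
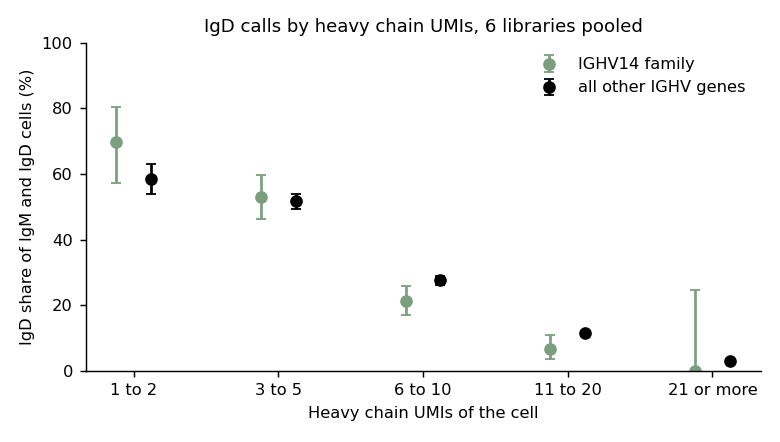
IgD share of IgM and IgD cells (%, y axis) by the number of heavy chain UMIs of the cell (x axis), for the IGHV14 family in green and all other IGHV genes in black, 6 libraries pooled, bars exact 95% intervals. The share declines with UMIs in both, and from 6 UMIs upward the family points lie below the others.

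Few family cells had switched isotype. Switched constant regions were called in 13 of 861 family cells with a call (1.51%, exact 95% interval 0.806% to 2.57%) and in 550 of 16317 other cells (3.37%, 3.10% to 3.66%). At the other cells' rate in each library 28.5 switched family cells would have been counted. By library the switched share was 2.17% of family cells and 4.21% of other cells in 5xFAD dCLN, 2.99% and 2.90% in 5xFAD sCLN, 2.48% and 4.32% in WT sCLN, and 0.926% and 1.46% in WT iLN. WT dCLN had 0 of 161 family cells, which allows a share of up to 1.86% at 3 counts (exact 95% interval up to 2.27%), and 4.31% of other cells. 5xFAD iLN had 0 of 113 family cells, which allows up to 2.65% at 3 counts (exact 95% interval up to 3.21%), and 1.27% of other cells. The family was lower in 5 of 6 libraries (exact sign-flip p = 0.0625, adjusted p = 0.117). By member the counts were too few for a direction per library, with 0 switched cells in 5 of 6 libraries for IGHV14-1 and IGHV14-4. The mixed library did not share this direction, with 12 of 136 family cells switched (8.82%) and 157 of 2303 other cells (6.82%).

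Of the 13 switched cells 7 were IgG2b, 2 IgG1, 2 IgG2c and 2 IgA. IGHV14-2 gave 7 of them, IGHV14-3 gave 4, and IGHV14-1 and IGHV14-4 gave 1 each. By genotype 8 came from 5xFAD and 5 from WT libraries. Their V mutation averaged 2.87% ± 2.89 (SD over 13 cells), against 2.62% ± 2.48 over 550 other switched cells. 3 of the 13 were unmutated, 9 carried at least 1% mutation, and the most mutated, an IgG2b cell of IGHV14-3 from the 5xFAD dCLN, differed from germline at 30 of 294 bases (10.2%). Of these cells 0 belonged to a clone, against 28.9% of other switched cells.

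2 of the 13, both IgA, had 100 or more heavy chain UMIs. An IGHV14-1 cell from the WT sCLN had 6083 UMIs, 3.81% V mutation and an IGKV12-46 light chain. An IGHV14-3 cell from the 5xFAD dCLN had 274 UMIs, 1 mismatch (0.340%) and an IGKV6-32 light chain. The other 11 had between 1 and 32 UMIs. The heavy chain junction of the first cell is printed since this cell holds more heavy chain RNA than any other switched family cell. Capitals here and in the junctions below mark the bases between the parts aligned to V and to J.
IGHV14-1, IgA, WT sCLN: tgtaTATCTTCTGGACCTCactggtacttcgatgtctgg

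Unswitched family cells were nearly all germline. A V mismatch was found in 11 of 848 (1.3%, exact 95% interval 0.649% to 2.31%) and in 639 of 15756 other unswitched cells (4.06%, 3.75% to 4.38%). The genes IGHV1-69 and IGHV2-6-1 carried a mismatch in most of their unswitched cells, and without these genes, a choice made after seeing the data, 2.37% of 15362 other cells had a mismatch. Mean mutation was then still lower in the family in 6 of 6 libraries (exact sign-flip p = 0.03125, unadjusted). Of the 11 family cells 6 used IGHV14-3, 3 IGHV14-4, 2 IGHV14-2 and 0 IGHV14-1. Lower unswitched mutation than in all other cells in all 6 libraries was seen for 32.8% of 61 genes.

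**Figure D3:**
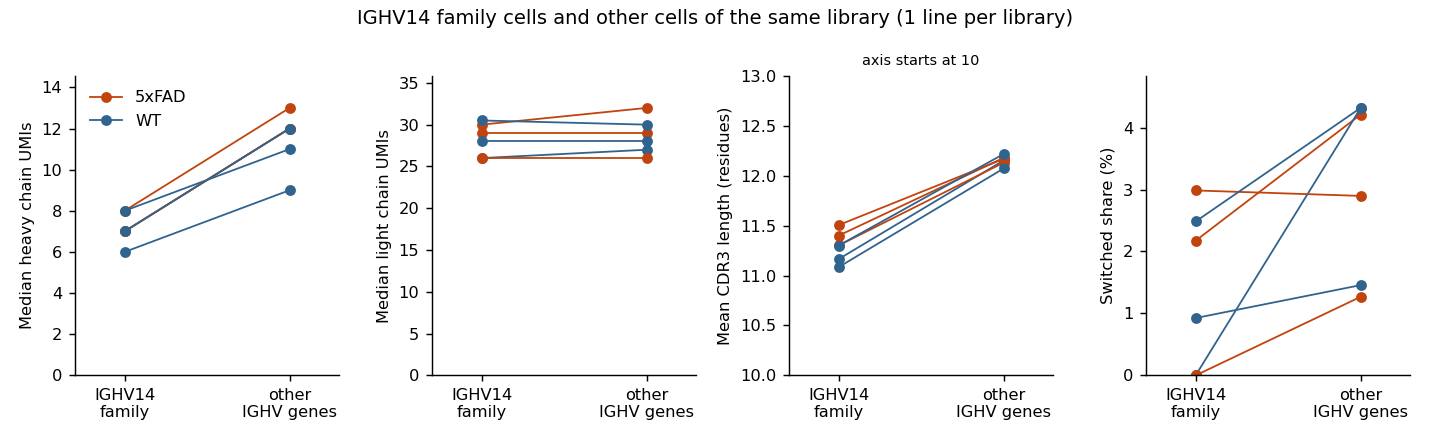
Median heavy chain UMIs, median light chain UMIs, mean CDR3 length (axis from 10 residues) and switched share (%) in IGHV14 family cells (left) and cells of other IGHV genes (right), with 1 line per library, 5xFAD in orange and WT in blue; the heavy chain lines of both iLN libraries and 5xFAD sCLN coincide. Heavy chain UMIs and CDR3 length are lower in family cells on all 6 lines, light chain medians differ by at most 2 UMIs, and the switched share is lower on 5 of 6.

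The heavy chain CDR3 of family cells was short. It averaged 11.3 residues in family cells and 12.2 in other cells, a difference of -0.860 ± 0.128 residues (SD over libraries) that was negative in 6 of 6 libraries (exact sign-flip p = 0.03125, adjusted p = 0.0781). By library the family means ran from 11.1 (WT sCLN) to 11.5 (5xFAD dCLN) and the other cells' means from 12.1 (WT sCLN) to 12.2 (WT iLN), without overlap. Among 13 families only IGHV6 had a shorter mean (10.4 residues). IGHV14-4 had the shortest CDR3 of the members at 10.7 residues, and IGHV14-3 the longest at 11.8. Members IGHV14-1, IGHV14-2 and IGHV14-4 were below other cells in 6 of 6 libraries and IGHV14-3 in 4 of 6, and 16.4% of 61 genes were below in all 6. A CDR3 of 9 or fewer residues occurred in 33.9% of IGHV14-4 cells, 26.3% of IGHV14-2, 22.0% of IGHV14-1 and 21.3% of IGHV14-3 cells, and in 14.8% of other cells. The mixed library had the same order, 11.1 residues in family cells and 12.1 in other cells.

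**Figure D4:**
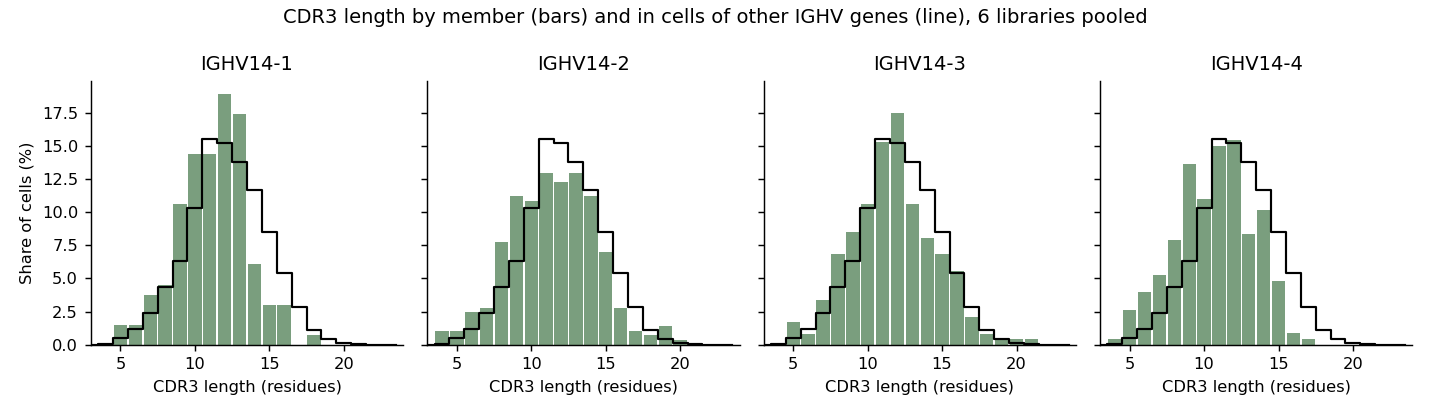
Distribution of heavy chain CDR3 length (residues, x axis) as a share of cells (%, y axis), 6 libraries pooled, for each member (green bars) and for cells of other IGHV genes (black line). IGHV14-4 has 33.9% of its cells at 9 or fewer residues, against 14.8% of cells of other IGHV genes.

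The junction was also taken apart into its segments. N bases, added without template at the joints, averaged 6.41 in family cells and 7.21 in other cells with a D call, lower in 6 of 6 libraries (exact sign-flip p = 0.03125, adjusted p = 0.0781). Between V and D alone they averaged 3.64 in family cells and 4.21 in other cells. The family ranked 5th lowest of 13 families in total N bases. IGHV14-4 had the fewest N bases in total at 5.89 and IGHV14-3 the most at 6.81. IGHV14-1 and IGHV14-4 were lower in all 6 libraries, against 9.84% of 61 genes.

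IGHJ2, which encodes a shorter CDR3 end than IGHJ1 and IGHJ4, was used by 39.5% of family cells and 33.1% of other cells, higher in 6 of 6 libraries (exact sign-flip p = 0.03125, adjusted p = 0.0781). IGHV14-2 had the highest share of the members, with IGHJ2 in 43.9% of its 285 cells, and was above other cells in 5 of 6 libraries. A higher IGHJ2 share in all 6 was seen for 9.84% of 61 genes and for 0 members. IGHV14-1 used IGHJ3 in 31.8% of its 132 cells, a higher share than in other cells in 6 of 6 libraries, as for 6.56% of 61 genes. Over the family IGHJ1 was used by 15.4% of family cells and 19.1% of other cells, IGHJ3 by 23.1% and 22.6%, and IGHJ4 by 22.1% and 25.2%. The mixed library did not share the IGHJ2 difference, with 34.3% in family cells and 35.5% in other cells. Within each J gene the family CDR3 was still shorter, with mean differences of -0.479 residues for IGHJ1, -0.880 for IGHJ2, -0.925 for IGHJ3 and -0.429 for IGHJ4, lower in 6 of 6 libraries for IGHJ2 and in 5 of 6 for each of the others.

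Of 770 family cells with a D call, IGHD1-1 was used in 349. Its mean share over libraries was 45.4% in family cells and 40.6% in other cells, higher in 6 of 6 libraries. IGHD2-4 held 9.67% of family cells and 11.0% of other cells, and IGHD2-3 held 8.69% and 8.43%. IGHD2-1 was also higher in 6 of 6 libraries, with 7.72% of family cells and 5.76% of other cells. IGHD4-1 was lower in 5 of 6, with 8.07% and 11.0%. No background over other IGHV genes was computed for D genes. IGHD1-1 was highest in IGHV14-4 at 48.7% of its cells with a D call.

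By residue content the CDR3 of family cells was more negatively charged, with a mean net charge of -0.531 in family cells and -0.277 in other cells, and more hydrophobic, with a mean Kyte-Doolittle hydropathy of -0.560 in family cells and -0.697 in other cells. Both held in 6 of 6 libraries and were measured after the other values were known, so no test is given. The charge was lowest in IGHV14-4 at -0.684, the only member below other cells in all 6 libraries, against 18.0% of 61 genes. Among 13 families IGHV6 (-0.721), IGHV10 (-0.596) and IGHV3 (-0.536) had a lower mean charge than the family. Hydropathy was higher in all 6 libraries in IGHV14-3 and IGHV14-4, against 14.8% of 61 genes.

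Light chains were known for 871 of 879 family cells, and 81 of 97 light chain V genes occurred in them. The 5 most used were IGKV1-110 (47 cells), IGKV1-135 (43), IGKV10-96 (42), IGKV1-117 (35) and IGKV6-32 (33). IGKV1-110 averaged 5.44% ± 1.86 of family cells and 2.73% ± 0.22 of other cells, and IGKV1-135 5.00% ± 2.74 of family cells and 3.11% ± 0.63 of other cells (SD, 6 libraries). Each was higher in family cells in 6 of 6 libraries. This was lost in 1 library for IGKV1-110 (5xFAD iLN, 2.86% of family cells and 2.93% of other cells with 3 or more UMIs, and likewise with repeats or clones counted once). For IGKV1-135 it was lost in 5xFAD sCLN with 3 or more UMIs (2.54% of family cells and 2.90% of other cells), and in WT dCLN and 5xFAD iLN among cells with exactly 1 light chain. Without these changes the IGKV1-135 shares were nearly equal in WT dCLN (3.73% of family cells and 3.70% of other cells) and 5xFAD sCLN (2.99% and 2.86%). Of the 43 family cells with IGKV1-135, 22 used IGHV14-4. Of 11 light chain V genes with 20 or more family cells, 18.2% were higher in all 6, which among the 11 are IGKV1-110 and IGKV1-135 alone. Genes that are high in the family pass this count filter more easily, so the 18.2% is not a neutral background. The filter leaves out rarer genes, among them IGKV8-27 with 19 family cells. IGKV8-27 was used by 2.18% of family cells and 0.704% of other cells of the 6 libraries together. It was higher in family cells in each library, on 1 to 5 family cells per library. IGKV10-96 (5.05% of family cells, 5.38% of other cells) and IGKV1-117 (3.91% and 3.74%) were near the level of other cells, and IGKV6-32 (3.68% and 2.06%) was higher in 5 of 6. Lambda chains were carried by 3.95% of family cells and 4.61% of other cells.

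About 1 in 10 IGHV14-4 cells carried each of these light chains. IGKV1-110 was paired with 23 of 225 IGHV14-4 cells (10.2%, exact 95% interval 6.59% to 14.9%), and was used by 2.79% of cells of all other IGHV genes. IGKV1-135 was paired with 22 of 225 (9.78%, 6.23% to 14.4%) and used by 3.11% of the other cells. The leading partner was not the same in all members, IGKV10-96 in IGHV14-1, IGKV10-96 and IGKV6-32 with 13 cells each in IGHV14-3, IGKV1-117 in IGHV14-2 and IGKV1-110 in IGHV14-4. IGKV1-110 was used by 3.88% of IGHV14-1, 4.21% of IGHV14-2 and 3.02% of IGHV14-3 cells. IGKV1-135 was used by 5.43% of IGHV14-1, 2.46% of IGHV14-2 and 3.02% of IGHV14-3 cells. For IGHV14-2 and IGHV14-3 this was below the 3.11% of other cells.

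By library IGKV1-110 was used by 1 of 40 IGHV14-4 cells in 5xFAD dCLN and 8 of 46 in WT dCLN, 2 of 32 in 5xFAD sCLN and 4 of 52 in WT sCLN, and 3 of 21 in 5xFAD iLN and 5 of 34 in WT iLN. IGKV1-135 was used by 4 of 40 in 5xFAD dCLN and 1 of 46 in WT dCLN, 3 of 32 in 5xFAD sCLN and 8 of 52 in WT sCLN, and 1 of 21 in 5xFAD iLN and 5 of 34 in WT iLN. Each pair was above other cells in 5 of 6 libraries, and the intervals of both genotypes overlapped in every node for both pairs. Of 75 pairs of an IGHV gene with a light chain V gene that held 20 or more cells, 18.7% were more than 2-fold enriched. The IGHV14-4 pairs with IGKV1-110 and IGKV1-135 ranked 3rd and 4th of the 75, at 3.67-fold and 3.14-fold. Among 225 IGHV14-4 cells, 20 cells are already more than 2-fold the share of either light chain in other cells. The count filter thus fixed the 2-fold call for these pairs and favoured a high rank, so neither the call nor the rank is evidence of enrichment. In the mixed library IGKV1-110 was used by 6 of 34 IGHV14-4 cells (17.6%) and 3.45% of other cells, and IGKV1-135 by 1 of 34 (2.94%) and 3.77% of other cells.

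**Figure D5:**
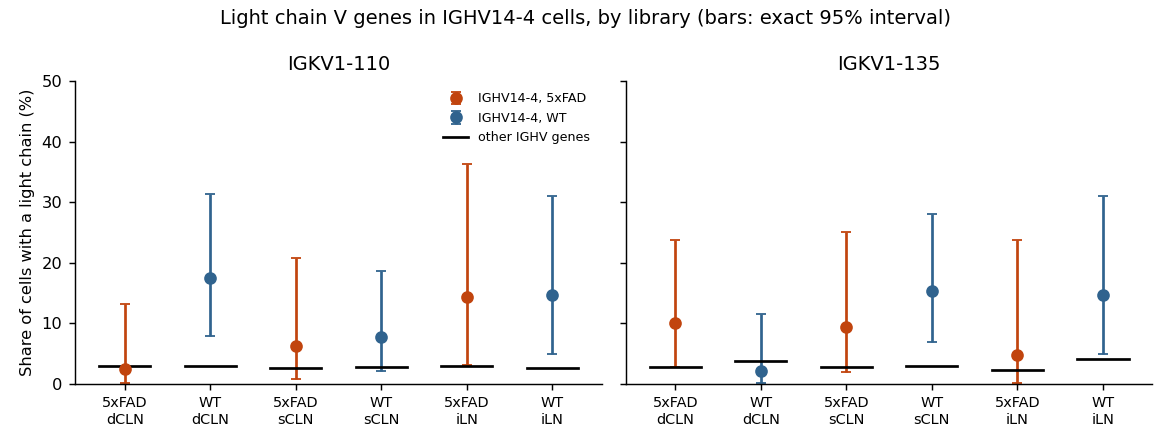
Share of IGHV14-4 cells with a light chain (%, y axis) that used IGKV1-110 or IGKV1-135, by library (x axis), 5xFAD in orange and WT in blue with exact 95% intervals; black lines give the share in cells of other IGHV genes. The point lies above the line in 5 of 6 libraries for each gene, with wide intervals.

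These cells were not 1 clone. The 23 IGHV14-4 cells with IGKV1-110 had 21 distinct heavy chain junctions and used 4 kappa J genes, and the 22 with IGKV1-135 also had 21. Their heavy chain CDR3 averaged 9.22 residues with IGKV1-110 and 9.68 with IGKV1-135, and 11.0 in the other 180 IGHV14-4 cells. The same light chains with other IGHV genes had a mean heavy chain CDR3 of 11.8 residues (IGKV1-110, 473 cells) and 10.5 (IGKV1-135, 528 cells). The most repeated light chain junctions are printed because they recur across libraries with different heavy chains. The IGKV1-110 one was found in 7 of the 23 cells in 4 libraries with 7 heavy chain junctions, and in 53 of 473 cells of other IGHV genes with this light chain V gene. The IGKV1-135 one was found in 8 of the 22 cells in 5 libraries with 8 heavy chain junctions, and in 81 of 528 such other cells.
IGKV1-110 with IGKJ4: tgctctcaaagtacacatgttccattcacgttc
IGKV1-135 with IGKJ1: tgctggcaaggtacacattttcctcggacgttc

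Clones were small. Within a library, cells of the same V gene and J gene whose junctions were equally long were joined when at most 0.15 of the junction bases differed. This put 83 of 879 family cells (9.44%, exact 95% interval 7.59% to 11.6%) into 40 clones, against 2202 of 16502 other cells (13.3%, 12.8% to 13.9%). Of the 40 clones 37 had 2 cells and 3 had 3 cells, while the largest clone of other cells had 9. By library the share in clones was 6.38% of family cells and 11.6% of other cells in 5xFAD dCLN, 23.2% and 18.8% in WT dCLN (8% and 6.73% with repeats counted as 1 cell), 2.94% and 12.5% in 5xFAD sCLN, 10.2% and 15.2% in WT sCLN, 6.96% and 9.84% in 5xFAD iLN, and 3.64% and 9.33% in WT iLN. The family was lower in 5 of 6 libraries (exact sign-flip p = 0.0938, adjusted p = 0.156). With cells of identical heavy and light chain junctions counted as 1, 3.29% of family cells and 5.63% of other cells were in clones.

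The members' shares in clones depended on these repeats. IGHV14-3 cells were in clones at a mean of 2.49% over libraries, and 0 of its 30 WT dCLN, 44 WT sCLN and 24 WT iLN cells were in a clone. Its share was lower than in other cells (12.8%) in 6 of 6 libraries, as for 8.20% of 61 genes. IGHV14-2 and IGHV14-4 averaged 11.8% and 11.1%, and in WT dCLN 21 of 62 IGHV14-2 cells (33.9%) were in clones. With repeats counted as 1 cell this was 6 of 54 (11.1%). Over the 6 libraries together the shares were then 1.57% for IGHV14-1, 3.70% for IGHV14-2, 1.71% for IGHV14-3 and 5.48% for IGHV14-4, so IGHV14-3 was no longer the lowest. Of the 40 clones 0 held a switched cell and 1 held a cell with a V mismatch, and 26 had 1 heavy and 1 light chain junction throughout, 12 of these in WT dCLN.

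The 3 largest clones came from WT nodes, used IGHJ1 and held 2 IgM cells and 1 IgD cell each without a V mismatch. The first, of IGHV14-2 in WT dCLN, had 1 junction and an IGKV8-28 light chain in all 3 cells. In the second, of IGHV14-2 in WT sCLN, 2 cells shared a junction and IGKV2-137, and the third had another junction and IGKV4-72. In the last, of IGHV14-4 in WT dCLN, 2 cells shared IGKV1-117 and the third carried IGKV4-57. In both clones with 2 light chain V genes the junctions are close but the light chains differ, so they do not meet a rule that also asks for the same light chain. In the IGHV14-4 junctions the V bases run straight into GGTAGTAG, a stretch of IGHD1-1, with 0 N bases between V and D. The 3 IGHV14-4 cells with this run are the cells of this clone, and it was found in 1 IGHV14-1 cell and in 1 of 16502 cells of other IGHV genes. The run starts with tgtactac, which among the members is the V end of IGHV14-1 and IGHV14-4 only. Genes without this V end could hardly hold the run, so these counts do not compare genes. The bases tactac also precede GGTAGTAG in the IGHV14-2 junction of 3 cells, so their assignment to V rather than D is not certain.
IGHV14-2, WT dCLN, 3 cells: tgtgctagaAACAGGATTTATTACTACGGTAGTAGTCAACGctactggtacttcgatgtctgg
IGHV14-2, WT sCLN, 1 cell: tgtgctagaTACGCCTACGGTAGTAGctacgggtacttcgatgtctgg
IGHV14-2, WT sCLN, 2 cells: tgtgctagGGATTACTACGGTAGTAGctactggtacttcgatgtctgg
IGHV14-4, WT dCLN, 1 cell: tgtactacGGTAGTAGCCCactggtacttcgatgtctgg
IGHV14-4, WT dCLN, 2 cells: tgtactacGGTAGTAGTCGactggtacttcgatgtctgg

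Between libraries the family shared 0 heavy chain junctions among 879 cells, and other IGHV genes shared 17 among 16502, which is too few for a comparison. At the level of residues 1 CDR3, of IGHV14-3 with IGHJ1 and 10 residues, was shared by 1 WT dCLN and 1 WT iLN cell, which had different bases and different light chains. Cells with a residue sequence shared between libraries were 0.228% of family cells and 0.594% of other cells.

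Among 53 IGHV genes with a mean share of at least 0.5%, the library shares of IGHV1-50 (Pearson's r = 0.884 over 6 libraries), IGHV1-78 (0.717) and IGHV1-39 (0.676) were most like those of the family. These are descriptions over 6 points whose shares sum to a common total. IGHV1-50 held 2.29% of cells in 5xFAD sCLN, where the family was highest, and 1.86% in WT sCLN.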

How the data were processed

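B cell receptor libraries were made with a 10x 5' single-cell kit from pooled, hashtag-labelled lymph node cells, per the labels' protocols and design text. The submitters' processing notes name mm10 as a build, and Seurat 4.1.0 beside Cell Ranger 6.0.1 as tools, with no step given for each. The tables list 1 contig per line with V, D and J calls, per the file headers. UMIs and reads per contig are counts as deposited, the V identity is a fraction as deposited, and lengths of junctions and N stretches count bases, as the file headers name them. The germline set is not given in the sources used here.

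Only cells with 1 heavy chain were used. Barcodes with several (2.59% to 5.62%) may be doublets and were not used, and no doublet caller was applied. Mutation is given as mismatched bases per 100 V bases against the germline alignment. The light chain with most UMIs stood for a cell. Cells per IGHV gene (30 or more cells) were fitted with edgeR 4.0.16 with node and genotype as terms and cell totals as library sizes, with DESeq2 1.42.0 as an alternative. Counts were simulated for 5xFAD against WT with 77 genes, 20 of them changed in each draw. The fit called 42.8% of genes changed 1.5-fold, 76.8% of those changed 2-fold and 91% of those changed 3-fold. The simulated counts held counting error only, without node differences or spread between libraries or animals. These rates may therefore be higher than the real libraries allow. Family and other cells were compared over 6 libraries by an exact two-sided sign-flip test. Shares have exact Clopper-Pearson 95% intervals, a count of 0 was given a limit of 3 counts, and intervals of differences combined both by square-and-add. Python 3.11.15, scipy 1.17.1 and R 4.3.3 were used.

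Alternatives changed the normalization, the filters, the clone rule and the libraries included. All J genes and the 3 most used D genes were named, and IGHD2-1 and IGHD4-1 were added with their values known. Named light chain V genes were the 5 most used by the family, the most used of each member, and those of 20 or more family cells that differed 1 way in 6 libraries. Named clones held 3 or more cells, and genes named for likeness had the highest correlation of shares. Members, lists and tests were chosen with earlier results of these data known. The mixed library was kept out of every test and of all values over the 6 libraries, and its own values are given apart.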

Additional observations from a re-analysis of the deposited data

Results flagged for a closer look

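The library in which nodes and genotypes were mixed entered no test. Its family and other cells are only set side by side above. In it 137 of 2488 cells with 1 heavy chain used the family (5.51%, exact 95% interval 4.64% to 6.48%), above the 0.121% that a count of 0 allows. IGHV14-1 held 1.13% of these cells, IGHV14-2 1.73%, IGHV14-3 1.29% and IGHV14-4 1.37%.

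Barcodes with several heavy chains were outside the main comparisons and entered only an alternative setting. In the 6 libraries 74 of their 1530 heavy chains used the family (4.84%, exact 95% interval 3.82% to 6.03%), above the 0.196% that a count of 0 allows and near the 5.12% of cells with 1 heavy chain.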

How the results depend on the processing

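Animals could not be paired because the labels number no replicates. Node paired 5xFAD with WT as a term of the fits, and the sign-flip tests paired family with other cells of the same library. Of 77 genes, 2 passed for 5xFAD against WT, and 0 passed by DESeq2, with 3 or more UMIs, with no filter, with barcodes of several heavy chains, with WT dCLN repeats counted once, or without any 1 node (0 to 0), and 1 with all repeats counted once, each clone once, or light chains required. The family's cervical against inguinal log2 fold change was 0.0163 by DESeq2. IGHV14-1 for 5xFAD against WT was -0.0056 by DESeq2, -0.0338 with 3 or more UMIs and from -0.18 (without the iLNs) to 0.18 (without the sCLNs). IGHV14-2 ran from -0.0832 (without the sCLNs) to 0.52 (without the dCLNs), and was -0.0807 for deep against superficial nodes with repeats counted once. Family minus other differences turned at matched UMIs for IgD (-1.99 points), at 3 or more UMIs for IGHJ3 (-0.0041 points) and mutation of switched cells (0.254), and against IGHV1 cells for lambda chains (0.521). Leaving out 1 library, IGHJ3 ran from -0.0743 to 1.52 and mutation of switched cells from -1.02 to 0.524. The share of family cells in clones was 14.3% at a distance of 0.20, 6.48% with the same light chain and 3.29% with repeats counted once. Node contrasts within 1 genotype were not run. Causes were not tested. Counts limit the members, at 13 to 65 cells per library.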
